A study of Mus musculus with 31 samples.

Results

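Transcripts of 10 genes of the NRF2 antioxidant response were followed in the liver of mice lacking both isoforms of the carbohydrate response element–binding protein ChREBP or only the shorter β isoform. The genes were Nfe2l2, Keap1, Nqo1, Gclc, Gclm, Txnrd1, Srxn1, Hmox1, Gsr and Prdx1, out of 23968 gene names tested, and they were taken by name as the pathway's regulator, its inhibitor and a set of its targets. The array carries 16 probes for them, of which 15 passed the filter on dim spots, and all 10 genes kept at least 1 probe. The remaining probe, 1 of 2 for Hmox1, was well above background on only 8 of 31 arrays.

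RNA came from the liver of 31 male C57BL6/J mice, with 1 one-color Agilent array per mouse. The total ChREBP-KO mice (ChREBPtotal_KO, n = 7) are Mlxipl-null in the whole body, and the ChREBPβ-deficient mice (ChREBPbeta_KO, n = 8) carry a CRISPR/Cas9 deletion of the exon that only the β isoform uses. Each line had its own WT littermates (ChREBPtotal_WT, n = 8, and ChREBPbeta_WT, n = 8). Every mouse, WT littermates included, was kept on a regular diet, went without food for 24 hours and was then refed over 18 hours, with 20% glucose in its water. The age of the mice was not given in the sources used here. Signals are log2 values after quantile normalization, so a difference of 1 is a doubling, and a probe was called when the adjusted p of the linear model was under 0.05. Levels of different probes are not on a common scale and are compared only between mice.

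NRF2, encoded by Nfe2l2, is a transcription factor that KEAP1 holds in the cytoplasm and hands to a CUL3 ubiquitin ligase for degradation. Oxidants and electrophiles modify KEAP1, NRF2 then enters the nucleus, pairs with small MAF proteins and binds antioxidant response elements near genes for glutathione synthesis, thioredoxin reduction, quinone reduction and heme breakdown. Many of these enzymes spend NADPH, which liver makes through the pentose phosphate pathway, malic enzyme and isocitrate dehydrogenases. ChREBP is a glucose-responsive activator of glycolytic and lipogenic genes, and malic enzyme is among its known targets.

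RefSeq promoter windows (assembly GRCm38.p6, 250 bases before to 50 bases after a gene's start) were at hand for 7 of the 10 genes. The antioxidant response element core TGACNNNGC was searched on both strands, and 5 of the 7 genes held it (Nfe2l2, Gclm, Txnrd1, Srxn1 and Prdx1). The 7 genes have 9 windows, of which 5 held the core, against 12.4% of all 32851 windows. Keap1 and Nqo1 did not hold it within these windows, and none of the 7 held the E-box CACGTG, which 7.15% of all windows did. The 30 bases around each match are shown because they let the members that moved and those that did not be set side by side. They read 5′ to 3′ on the strand of the gene, with the core in capitals, and on Gclm, Txnrd1, Srxn1 and Prdx1 the core lies on the opposite strand.
Nfe2l2, chr2:75704884-75704913, minus strand: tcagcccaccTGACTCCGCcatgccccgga
Gclm, chr3:122245413-122245442, plus strand: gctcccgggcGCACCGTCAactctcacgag
Txnrd1, chr10:82859104-82859133, plus strand: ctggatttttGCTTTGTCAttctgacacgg
Srxn1, chr2:152105542-152105571, plus strand: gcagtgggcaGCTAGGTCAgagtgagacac
Prdx1, chr4:116685456-116685485, plus strand: cagggaaagcGCTGAGTCAtcccccgtagg
The Srxn1 match lies after the start site and the other 4 lie before it. Srxn1 and Prdx1 also each held 2 copies of the related heptamer TGAGTCA, present in 5.2% of all windows, and 1 of the Prdx1 copies overlaps the core shown. The Srxn1 copies, in capitals, begin 102 and 45 bases before the start site.
Srxn1, chr2:152105411-152105440, plus strand: ctcggagggccTGAGTCAccacgctgtgcg
Srxn1, chr2:152105468-152105497, plus strand: caaattcacccTGAGTCAgcggccgggcgc
These matches describe letters and not bound sites, and no binding was measured.

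The arrays had between 34131 and 38612 spots passing the authors' quality weights and correlated with each other at 0.980 to 0.999. One of 3 Mlxipl probes read 14.1 ± 0.129 (SD, n = 7) in total ChREBP-KO mice against 15.3 ± 0.124 (SD, n = 8) in their WT littermates, and it was also lower, by 0.45, in ChREBPβ-deficient mice (adjusted p = 0.015). The other Mlxipl probes differed by -0.59 (adjusted p = 0.0031) and -0.05 (adjusted p = 0.60) in the total line. The 10 hepatocyte markers were bright in every group, with mean signals of 16.0 to 16.4 per mouse, and in the total line 3 of them were called higher (Cyp2e1, Cps1 and Ttr) and 1 lower (Asgr1). Exocrine pancreas markers averaged 9.80 to 11.1 in WT littermates 2, 7 and 8 of the total line and 8.06 to 8.60 in the other mice of that line, and 5 of the 8 genes of that list that passed the filter were lower in total ChREBP-KO mice. Adipocyte markers averaged 10.7 in total ChREBP-KO mouse 6 and 10.05 and 9.69 in WT littermates 5 and 2, against 7.99 to 9.11 in the rest of that line. Of the 7 genes of that list, Car3 was called higher and the other 6 were not called, with a median probe difference of -0.07. None of 12 macrophage markers was called in any of the comparisons, while 1 of 7 neutrophil and 1 of 7 red blood cell markers were called in the total line, Mpo lower by 0.21 and Alas2 higher by 0.34. Stellate and endothelial markers had 3 of 10 genes higher. Beside these marker counts of the total line, 17.3% of all genes were called higher and 17.1% lower. Of 10 acute-phase genes, a list added after the data had been seen, 8 were lower in total ChREBP-KO mice with a median difference of -1.11. Of 2 metallothionein genes, added likewise, Mt1 was called lower only by a dimmer probe. Its brightest probe differed by -0.85 and was not called (adjusted p = 0.27), nor was the brightest Mt2 probe. Dbp, a clock-output gene also picked after its values were seen, read 12.2 to 14.04 in all 7 total ChREBP-KO mice and 9.05 to 10.9 in their WT littermates. In the β line it was widely spread within both groups, at 8.53 to 14.5 in deficient mice and 8.22 to 15.3 in WT littermates. Results without the 3 WT littermates with pancreas markers are given where they differ, and the part of the other shifts in the results was not tested. In whole liver a change in cell makeup and a change in RNA per cell cannot be told apart.

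NRF2 pathway genes differed in both directions when both ChREBP isoforms were missing. In total ChREBP-KO mice, Srxn1, Gsr and 1 of 2 Nfe2l2 probes were lower, Gclc, Gclm, Nqo1 and 1 of 4 Prdx1 probes were slightly higher, and Keap1, Txnrd1 and Hmox1 were not called. That made 4 of 10 genes higher, where 17.3% of all genes tested were called higher, and 3 of 10 lower, where 17.1% were. The median over the 15 probes was -0.08 on the log2 scale, against 0.01 over all 36059 probes. In none of the 15 probes did all knockout mice lie beyond all WT littermates, a separation that 7.40% of all probes showed. The 3 lower genes were called under each of the 15 alternative settings and with each of the 31 arrays left out in turn. The 4 higher calls lay close to the threshold, and the count of called genes fell from 7 to 3, with no gene higher, when total ChREBP-KO mouse 5 or WT littermate 4 was left out. It fell to 4 without knockout mouse 1 or WT littermate 2, and to 5, with Gclc and Prdx1 lost, without the 3 WT littermates with pancreas markers.

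**Figure D1:**
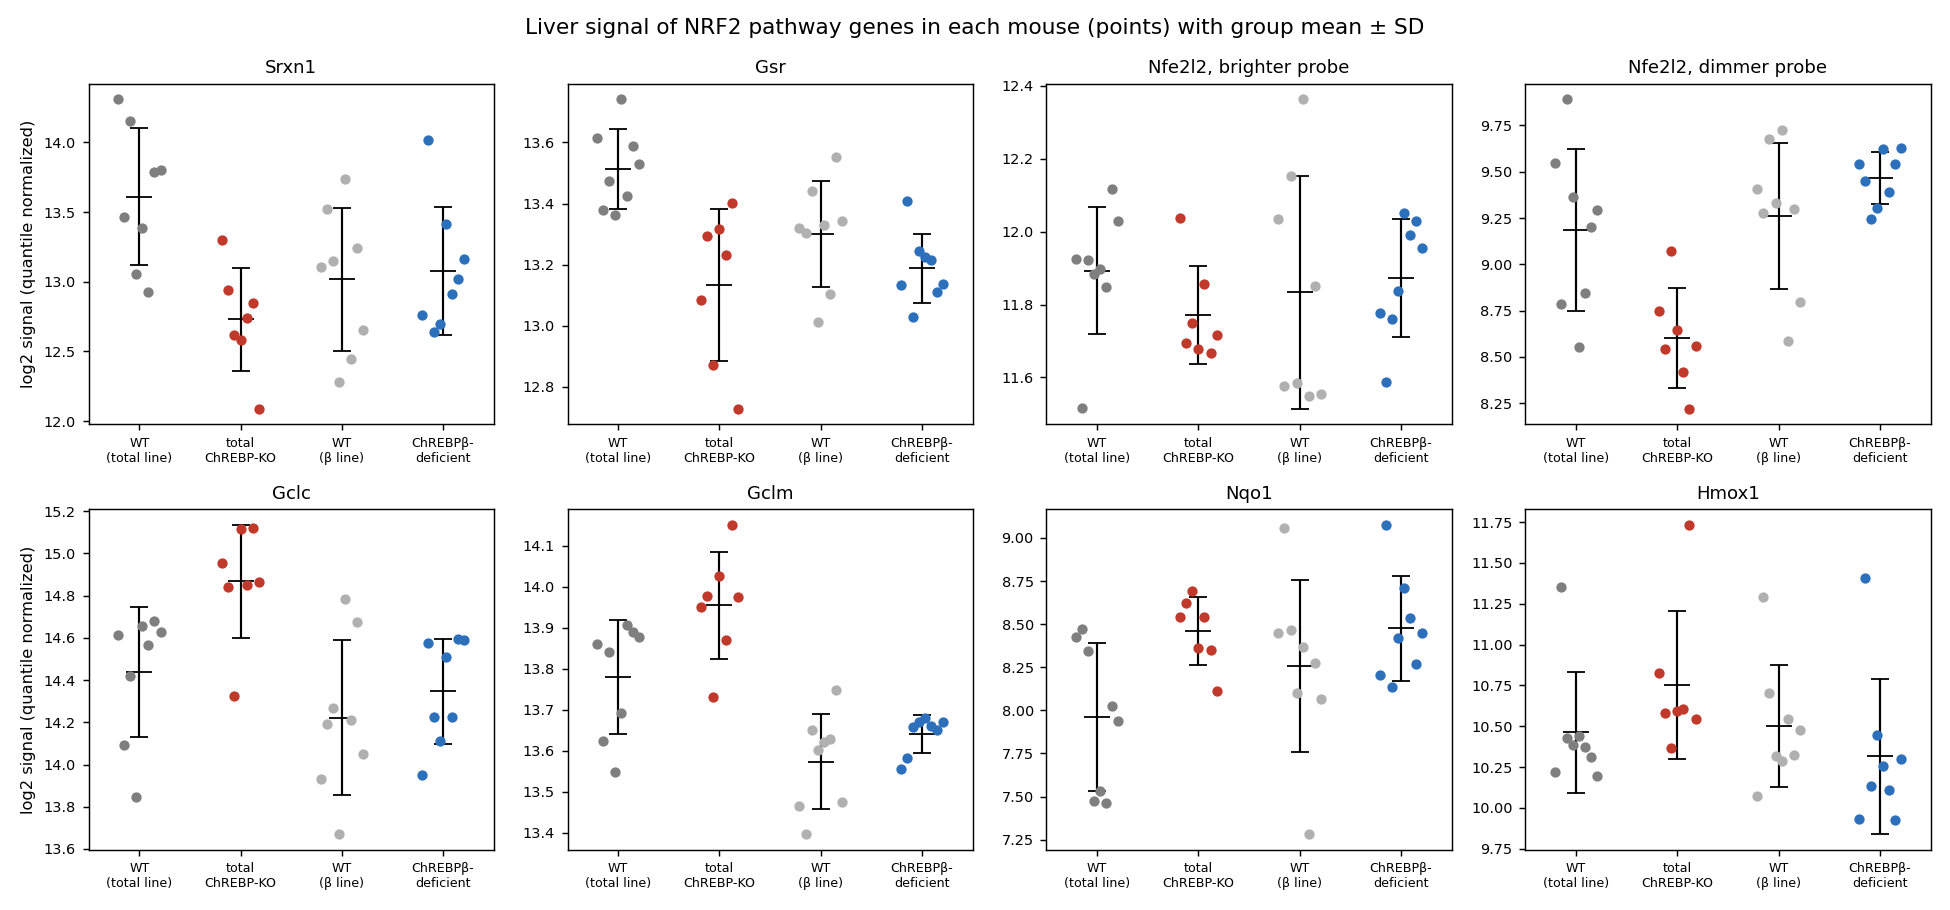
Log2 signal (vertical axes, each panel on its own scale) of 8 probes of NRF2 pathway genes in every mouse, by group, with points for mice and black bars for group means ± SD. Total ChREBP-KO mice sit low for Srxn1, Gsr and the dimmer Nfe2l2 probe and high for Gclc, Gclm and Nqo1, with overlap of the groups in each panel, and 1 mouse per group stands high for Hmox1.

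The largest difference was in Srxn1, which encodes sulfiredoxin, the enzyme that uses ATP to rescue hyperoxidized peroxiredoxins. Its signal ran from 12.1 to 13.3 with a median of 12.7 in total ChREBP-KO mice and from 12.9 to 14.3 with a median of 13.6 in WT littermates. All 7 knockout mice lay under the WT median and 5 were below the lowest WT littermate, so the groups overlapped only at their edges. The difference was -0.88 ± 0.23 (SE, n = 7 and 8), a level 1.84-fold lower (adjusted p = 0.0037). It was -0.89 on the first scan day and -0.92 on the second, each with 3 or 4 mice per group, and Srxn1 was lower in 3 of the 4 slides that held both groups.

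Gsr, which encodes the NADPH-dependent glutathione reductase, read 12.7 to 13.4 with a median of 13.2 in total ChREBP-KO mice. In WT littermates it read 13.4 to 13.7 with a median of 13.5. The overlap came from 1 knockout mouse, number 7 at 13.40, and the other 6 lay below the lowest WT littermate at 13.36. Gsr was lower by 1.30-fold, with a log2 difference of -0.38 ± 0.087 (SE) and the smallest adjusted p of the pathway, 0.0012. It was lower in 4 of 4 slides holding both groups.

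The regulator Nfe2l2 gave different readings with its 2 probes. The brighter probe (mm9 chr2:75513771-75513830) read 11.67 to 12.04 with a median of 11.7 in total ChREBP-KO mice, 11.52 to 12.12 with a median of 11.9 in WT littermates, and gave a difference of -0.12 ± 0.11 (SE, adjusted p = 0.43). The dimmer probe (mm9 chr2:75529291-75529350) read 8.22 to 9.07 with a median of 8.56 in knockout mice and 8.55 to 9.89 with a median of 9.25 in WT littermates. It was lower, with a log2 difference of -0.58 ± 0.16 (SE, adjusted p = 0.0073), and it was lower in 4 of 4 slides holding both groups, with all 7 knockout mice below the WT median and 3 below the lowest WT littermate. After group means were removed, the probes correlated at r = 0.55 over the 31 arrays, which share their normalization. Both positions are those of the array's annotation, and no mm9 gene model was used here to place them in exons. The protein and its place in the cell, which are the main points of control of NRF2, are not measured by an array. Keap1, its inhibitor, differed by -0.08 (95% confidence interval -0.23 to 0.06), with knockout mice at 11.5 to 11.9 and WT littermates at 11.5 to 12.1.

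Both subunits of glutamate-cysteine ligase, the rate-limiting enzyme of glutathione synthesis, were higher in total ChREBP-KO mice. Gclc, the catalytic subunit, read 14.3 to 15.1 with a median of 14.9 in knockout mice and 13.8 to 14.7 with a median of 14.6 in WT littermates. Of the knockout mice 6 exceeded the highest WT littermate, and mouse 4, at 14.32, lay apart from the other knockout mice. Gclc was 1.35-fold higher, a log2 difference of 0.43 ± 0.15 (SE, adjusted p = 0.030). The call was lost without knockout mouse 1, 5 or 7 or WT littermate 2 or 4, with adjusted p up to 0.078. It was also lost with slide as a fixed block (adjusted p = 0.066), without the 3 WT littermates with pancreas markers (0.054) and without 3 arrays at one end of the first principal component (0.067). Gclm, the modifier subunit, rose by only 0.17 ± 0.061 (SE, adjusted p = 0.029), from 13.55 to 13.91 with a median of 13.85 in WT littermates to 13.73 to 14.15 with a median of 13.97 in knockout mice. It was above the highest WT littermate in 5 of 7 knockout mice, and its call was lost without knockout mouse 5 or 7 or WT littermate 2, 4 or 5, with adjusted p up to 0.081. The Gclm call was also lost under 4 of the 15 alternative settings, with adjusted p up to 0.13. They were 75th-percentile scaling of the median signal, each line fitted alone, the exact Mann-Whitney test and omission of the 3 first-component arrays.

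Nqo1, a quinone reductase often read as the standard output of NRF2, was 1.41-fold higher in total ChREBP-KO mice, with a log2 difference of 0.50 ± 0.19 (SE, adjusted p = 0.044). Knockout mice read 8.11 to 8.69 with a median of 8.54. WT littermates read 7.47 to 8.47 with a median of 7.98. The WT littermates were uneven, since mice 4, 5 and 6 lay at 7.48, 7.53 and 7.47 while mice 1, 2 and 3 lay at 8.43, 8.47 and 8.35, within the knockout range. All 7 knockout mice were above the WT median. Leaving out 1 mouse ended the call for 10 of the 15 mice of this line (knockout mice 1, 2, 4, 5 and 6 and WT littermates 4, 5, 6, 7 and 8), with adjusted p up to 0.097. The call was also lost without a filter, with the exact Mann-Whitney test (adjusted p = 0.056) and with slide as a fixed block (adjusted p = 0.12).

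In the thioredoxin arm, Txnrd1, the cytosolic thioredoxin reductase, read 13.22 to 13.63 with a median of 13.31 in knockout mice and 13.28 to 13.78 with a median of 13.41 in WT littermates by its brighter probe. It had differences of -0.08 and -0.12 with its 2 probes, neither called, and 95% confidence intervals of -0.24 to 0.08 and -0.40 to 0.16. Prdx1, a peroxiredoxin and the substrate of sulfiredoxin, had 3 bright probes with differences of -0.12, -0.08 and -0.05, none called. Its dimmest probe, at 5.63 to 6.11 in knockout mice and 5.47 to 5.96 in WT littermates, was called higher by 0.24 (adjusted p = 0.032). The 3 bright probes correlated with each other at r = 0.82 to 0.87 after group means were removed, but with the dim probe only at r = 0.12 to 0.15, over 31 arrays of shared normalization. For the dim probe, omission of 1 mouse ended the call for 8 mice (knockout mice 1, 2 and 5 and WT littermates 2, 3, 4, 7 and 8), with adjusted p up to 0.089. Of the 14 alternative settings that kept this probe, 7 ended the call. Among them were percentile scaling of the processed signal, a background correction, no filter, each line fitted alone and the exact Mann-Whitney test. The call was also lost without 3 arrays at one end of the first principal component. Without the WT littermates that carried pancreas markers the adjusted p of the dim probe was 0.22.

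Hmox1, the heme oxygenase, was not called, at 0.29 ± 0.21 (SE, 95% confidence interval -0.13 to 0.71, adjusted p = 0.32). Knockout mice read 10.4 to 11.7 with a median of 10.6, and WT littermates read 10.2 to 11.4 with a median of 10.4. In each of these groups a single mouse stood far above the rest, at 11.73 in knockout mouse 7 and 11.35 in WT littermate 2. The difference was 0.12 without that knockout mouse (adjusted p = 0.68) and 0.41 without that WT littermate (adjusted p = 0.11), and no omission of 1 array made it a call. It was called when 3 arrays at one end of the first principal component were left out, WT littermate 2 among them and knockout mouse 7 not (0.41, adjusted p = 0.023).

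**Figure D2:**
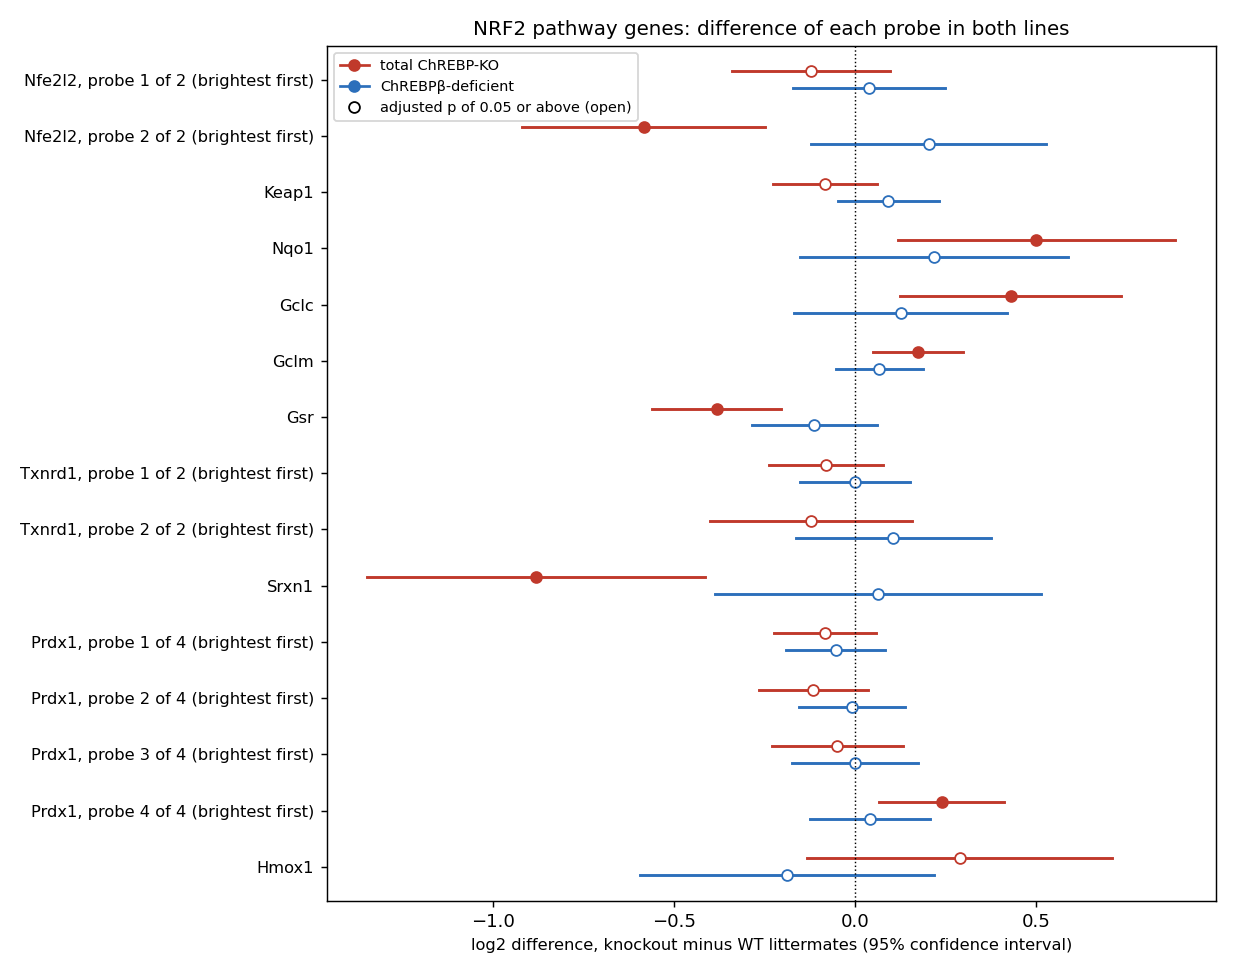
Log2 difference of each of the 15 probes, knockout minus WT littermates (horizontal axis), in total ChREBP-KO mice (red) and ChREBPβ-deficient mice (blue), with 95% confidence intervals as lines and filled points where the adjusted p is under 0.05. Filled points occur only in red, 4 to the right and 3 to the left of 0, and the 15 blue estimates lie between -0.19 and 0.22.

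Loss of the β isoform alone left no NRF2 pathway gene called. The 15 differences lay between -0.19, for Hmox1, and 0.22, for Nqo1, with confidence limits between -0.59 and 0.59. By limma 0 of 15 probes had an unadjusted p under 0.05, where 4.98% of all probes did. Over all genes limma called 1, which is 0.00417% of those tested. The exact Mann-Whitney test called 0 genes of the pathway and 0 over all genes, so its count says nothing particular to the pathway. Of the genes that moved in the total line, Gclc differed by 0.13, Gclm by 0.07, Gsr by -0.11 and Srxn1 by 0.06, and the dimmer Nfe2l2 probe by 0.20. ChREBPβ-deficient mice spanned 12.64 to 14.02 for Srxn1 and their WT littermates 12.28 to 13.73, so the groups overlapped almost fully. Their medians were 12.97 and 13.13. The interval of Srxn1, from -0.39 to 0.51, does not reach the difference of -0.88 measured in the total line. For Gsr the interval was -0.29 to 0.06.

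The other members overlapped between ChREBPβ-deficient mice and their WT littermates as well. Gsr read 13.03 to 13.41 in deficient mice and 13.01 to 13.55 in WT littermates. The dimmer Nfe2l2 probe read 9.25 to 9.63 in deficient mice, with a median of 9.496, and 8.59 to 9.72 in WT littermates, with a median of 9.31. Keap1 read 11.80 to 12.03 against 11.69 to 11.97. For these 3 genes the deficient mice stayed within or close to the span of their WT littermates. Nqo1 was widely spread in both groups of this line, at 8.13 to 9.08 in deficient mice and 7.28 to 9.06 in WT littermates, with medians of 8.44 and 8.32. Gclc read 13.95 to 14.59 against 13.67 to 14.78, and Gclm 13.56 to 13.68 against 13.40 to 13.75. In both subunits of glutamate-cysteine ligase all deficient mice lay inside the WT span. Hmox1 read 9.93 to 11.41 against 10.07 to 11.29, with 1 mouse of each group above 11.2.

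Whether a gene responded differently in the 2 lines was tested as the difference of their effects. The effect on Srxn1 was lower in the total line by 0.94 ± 0.32 (SE, adjusted p = 0.041), and that on the dimmer Nfe2l2 probe by 0.79 ± 0.23 (SE, adjusted p = 0.017). These were 2 of 10 genes, where 18.3% of all genes were called for this difference. The effects on Gsr (-0.27, adjusted p = 0.14), Gclc (0.30, adjusted p = 0.37) and Nqo1 (0.28, adjusted p = 0.53) were not shown to differ between the lines. The Nfe2l2 call held with every single array left out but not with slide as a fixed block (adjusted p = 0.054). That of Srxn1 was lost when 1 of 14 arrays was omitted, namely ChREBPβ-deficient mouse 2, 5 or 8, their WT littermate 4, 6 or 8, total ChREBP-KO mouse 4, 5, 6 or 8 or their WT littermate 1, 3, 7 or 8, with adjusted p up to 0.076.

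The WT littermates of the lines, which share genotype label and feeding, were themselves not alike. Txnrd1 was higher in WT littermates of the total line by 0.30 ± 0.074 (SE, adjusted p = 0.0061) and 0.40 ± 0.13 (SE, adjusted p = 0.036) with its 2 probes, and Gclm by 0.21 ± 0.059 (SE, adjusted p = 0.014). The dim Prdx1 probe was lower by 0.36 ± 0.081 (SE, adjusted p = 0.0024). These made 3 of 10 genes, where 21.2% of all genes were called between the WT groups. The call of the dimmer Txnrd1 probe was lost when 1 of 11 arrays was omitted (WT littermates 1, 2, 4 and 7 of the β line and 1, 2, 3, 4, 6, 7 and 8 of the total line), with adjusted p up to 0.076. For Gclm this shift of 0.21 stands beside a rise of 0.17 in total ChREBP-KO mice. Srxn1 was also brighter in WT littermates of the total line, with a median of 13.6 against 13.1, but the difference of 0.59 ± 0.22 (SE) was not called (adjusted p = 0.060). It was called with slide as a random block, without the 3 first-component arrays, and without ChREBPβ-deficient mouse 2, WT littermate 2 or 5 of the β line or WT littermate 4 or 6 of the total line. Marker lists moved here too, with 5 of 7 red blood cell genes, 3 of 7 neutrophil genes and 5 of 8 pancreas genes higher in WT littermates of the total line. Without the 3 WT littermates with pancreas markers, Gclm was no longer called (adjusted p = 0.051), while Txnrd1 and Prdx1 were, and the part of the red blood cell and neutrophil genes was not tested. The WT group and the line it was bred in cannot be told apart. With slide as a fixed block only the Prdx1 probe remained called.

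Some genes that supply the NADPH these enzymes spend had larger differences than any pathway member. Of 14 genes listed for NADPH-producing pathways, not all of which make NADPH themselves, 6 were lower and 3 higher in total ChREBP-KO mice. Over all genes 17.1% were lower and 17.3% higher, and 0 of the 14 were called in ChREBPβ-deficient mice. Me1, the cytosolic malic enzyme, read 11.1 to 12.5 in knockout mice and 13.7 to 16.0 in WT littermates with its brighter probe, with no overlap, and was 9.04-fold lower (log2 difference -3.18 ± 0.29, SE, adjusted p = 6.79e-10). Pgd, of the oxidative pentose phosphate pathway, read 10.3 to 11.1 against 11.5 to 13.4 and was 3.47-fold lower by the brightest of 3 probes (adjusted p = 1.77e-07). G6pdx, which opens that pathway, was lower by 0.72 ± 0.22 (SE, adjusted p = 0.013), and its groups overlapped. H6pd and Idh1, the enzymes of the endoplasmic reticulum and of the cytosol, were lower by 0.34 and 0.32.

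Not every source of NADPH was lower. Idh2, which makes NADPH in mitochondria, read 14.6 to 15.1 in total ChREBP-KO mice and 13.99 to 14.36 in WT littermates, without overlap, and was 1.51-fold higher (adjusted p = 1.61e-06). Pgls, an enzyme of the pentose phosphate pathway that makes no NADPH itself, was higher by 0.15. Of 3 Nnt probes 1 was higher by 0.31, while the brightest Nnt probe, at 0.11, was not called. Aldh1l1 counted among the lower genes only through its dimmer probe (-1.04), since the brighter one differed by -0.06 and was not called. The median over the 27 probes of the list was 0.04 against 0.01 over all probes. NADPH itself and the redox state of glutathione were not measured. Among the 12 genes of this list in the promoter table, 3 (Me1, Pgd and G6pdx) held the antioxidant response element core, which 12.4% of all windows held. Some of the 12 genes have more than 1 window. The Me1 match begins 6 bases before the start site. It is shown because Me1 fell most.
Me1, chr9:86695901-86695930, minus strand: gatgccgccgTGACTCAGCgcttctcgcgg

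**Figure D3:**
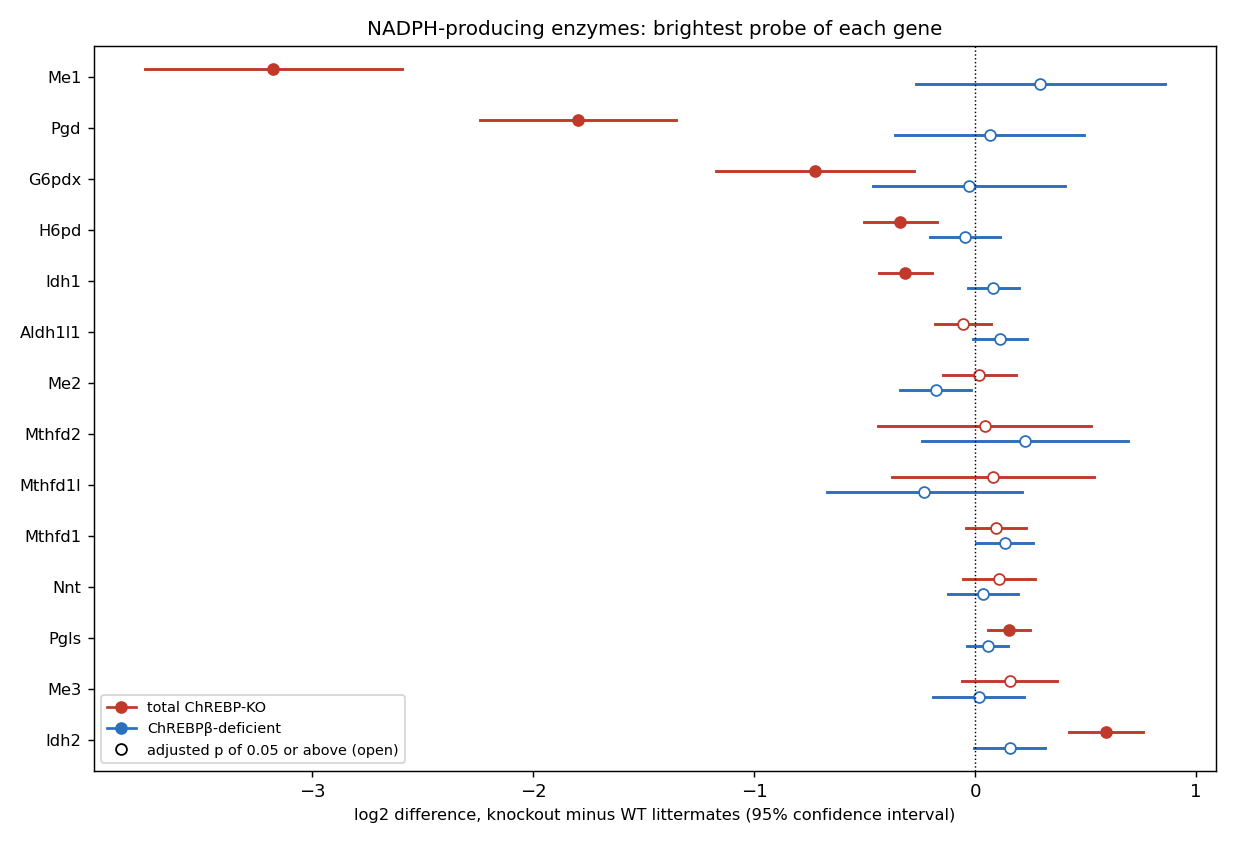
Log2 difference, knockout minus WT littermates (horizontal axis), of the brightest probe of each of 14 genes listed for NADPH-producing pathways. Total ChREBP-KO mice are in red and ChREBPβ-deficient mice in blue, with 95% confidence intervals as lines and filled points where the adjusted p is under 0.05. Me1 at -3.18 and Pgd at -1.80 lie far to the left in red and Idh2 at 0.59 to the right, while each blue interval but those of Me2 and Mthfd1 crosses 0 and none is filled.

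Around the core members, of 14 partners and brakes of NRF2, 4 genes were higher and 4 lower in total ChREBP-KO mice, with a median probe difference of 0.04. Over all genes 17.3% were higher and 17.1% lower, and the median over all probes was 0.01. Higher were Maff, a small MAF protein (0.64), the related factor Nfe2l3 by 1 of 3 probes (0.63), and Rbx1 (0.18) and Cul3 (0.17) of the ubiquitin ligase that KEAP1 serves. Gsk3b and Btrc take part in a KEAP1-independent route of NRF2 degradation. Gsk3b was called lower by 2 of 4 probes (-0.43 and -0.31), while its brightest probe differed by 0.00 (adjusted p = 0.98), and Btrc by 1 of 2 probes (-0.27). Sqstm1 and Dpp3, proteins that bind KEAP1 and compete with NRF2, were also lower (-0.32 and -0.26), and all 3 Sqstm1 probes were called, at -0.26 to -0.32.

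Of other known NRF2 targets, 10 were higher and 3 lower of 30 tested, beside 17.3% and 17.1% of all genes, with a median probe difference of 0.15 beside 0.01 over all probes. These counts leave out Me1 (-3.18), Pgd (-1.80) and G6pdx (-0.72), which held the core, were called lower and were listed with the NADPH-producing genes. The cytochrome Cyp2a5 was higher by 1.68 and the export pumps Abcc3 and Abcc2 by 1.201 and 0.65, and for each of these all knockout mice lay above all WT littermates. The glutathione transferase Gsta3 was called by the dimmest of its 3 probes (1.77, without overlap), whereas its bright probes differed by 0.10 and 0.11 and were not called (adjusted p = 0.21 and 0.13). Lower were the transferase Gstp1 (-0.55), the aldehyde oxidase Aox1 (-0.36) and, by 1 of 2 probes, the pump Abcc1 (-0.23). Probes of Gsta and Gstp genes can bind transcripts of close paralogs, so their values may mix members. Some of these genes also answer to nuclear receptors, and the list does not separate these inputs. For the difference from the effect in the β line, 4 of the 30 genes were called higher and 1 lower. Over all genes 18.3% were called for this difference, and the median over the list's probes was 0.02. Cyp2a5, Abcc3 and Abcc2 were among the higher ones, by 1.38, 0.87 and 0.56 (adjusted p = 6.34e-04, 0.0016 and 0.0013).

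Of enzymes that use or make glutathione, 8 of 15 genes were higher and 1 lower, with a median probe difference of 0.16, where 17.3% of all genes were higher and 17.1% lower. The peroxidase Gpx2 (1.02), the glyoxalase Hagh (0.87), Gpx7 (0.73) and Oplah (0.40) had the largest rises, and Ggct (-0.39) was the 1 that fell. Of thioredoxin and peroxiredoxin enzymes 8 of 16 were higher and 2 lower, beside the same shares of all genes, with a median of 0.09. Msrb1, a methionine sulfoxide reductase, was higher by 0.64, without overlap of the groups. Mitochondrial Txn2 (0.33), Prdx4 (0.31) and Sesn3 (0.27) were called higher by their dimmest probe, while the brightest probe of each was not called, at -0.09, 0.02 and 0.20. Txnip, the thioredoxin inhibitor and a known ChREBP target, was lower by 1.23 on the log2 scale, at 11.6 to 12.2 in knockout mice and 12.3 to 13.9 in WT littermates, and Prdx3 was lower by 0.17. Catalase (Cat) was the 1 gene called among 5 for superoxide and peroxide removal, higher by 0.26 (adjusted p = 0.0082). No gene of these lists was called in ChREBPβ-deficient mice.

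Within groups, Nqo1 varied together with some members and not with others. After group means were removed, its correlation over the 31 arrays was 0.76 with Srxn1, 0.50 with the dimmer Nfe2l2 probe, 0.43 with the brighter Txnrd1 probe and 0.39 with Hmox1. It was 0.07 with the brighter Nfe2l2 probe, 0.01 with the dimmer Txnrd1 probe and between -0.18 and 0.08 with Gclc, Gclm and Keap1. The arrays share their normalization, and these values are descriptions without a test. Srxn1 was the member most like Nqo1 within groups, and the 2 genes differed in opposite directions between total ChREBP-KO mice and their WT littermates. The 5 other gene names most like Nqo1 in this respect were Gsta2 (r = 0.85), Gm10639 (0.78), Htatip2 (0.77), Vldlr (0.77) and Mgst3 (0.76).

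**Figure D4:**
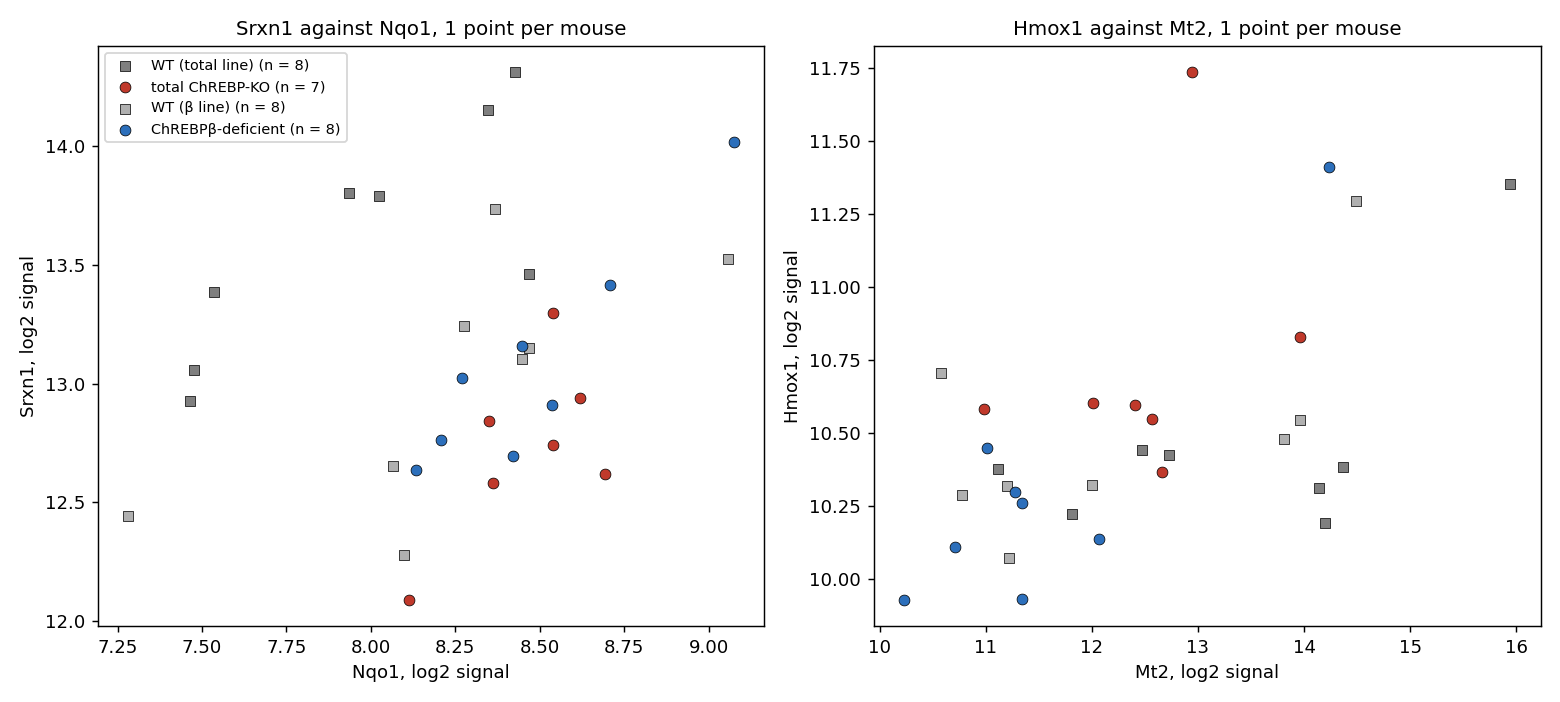
Left, Srxn1 against Nqo1, and right, Hmox1 against Mt2, both as log2 signals with 1 point per mouse, squares for WT littermates and circles for knockout mice. On the left, the total ChREBP-KO mice (red) lie below and to the right of most of their WT littermates (dark gray) while Srxn1 rises with Nqo1 within groups. On the right, 4 mice stand above 11.2 for Hmox1, 3 of which have Mt2 signals of 14.2 to 15.9.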

How the data were processed

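Labels gave the group and replicate number of the 31 arrays. Replicate 3 of the total ChREBP-KO mice was not analysed here. Per the file headers, Agilent Feature Extraction 10.10.1.1 read each array, and the authors deposited its spot intensity, not normalized between arrays, with spot flags. They also deposited log2 values, described as quantile normalized with spots filtered by weight, whose log base was inferred from the scanner values. Differences between these and the values used here lay between -0.027 and 0.030 at their 1st and 99th percentiles.

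Here the median intensity, with no background subtracted, was converted to log2. A spot stayed in if its flags passed on 26 or more arrays, or on 6 or more within 1 group. After quantile normalization 36059 probes remained, with copies of a probe summarized by their median. Limma 3.58.1 (R 4.3.3) fitted all 4 groups in 1 model with empirical Bayes moderation. P-values were adjusted by Benjamini-Hochberg over all probes at 0.05, and a gene was called when at least 1 probe passed. A gene with more probes thus has more chances of a call. The lists differ from all genes in probes per gene, and the shares beside them were not adjusted for this. The test was checked on simulated data. Plots used matplotlib 3.10.9.

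The members, gene lists and tests were chosen with earlier results of these data known, so no list supports a result. All member probes are named. In other lists the genes called in the total line are named, at most the 4 with the largest differences per direction. Acute-phase and metallothionein genes, Dbp and 2 sets of arrays to leave out were chosen after seeing the data. Alternatives covered scaling, background, filter, deposited values, slide, scan day, replicate number, tool and single arrays. Precision is limited by 7 or 8 mice per group.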

Additional observations from a re-analysis of the deposited data

Results flagged for a closer look

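In 7 of 60 groups of member values 1 mouse lay apart from the rest by Dixon's criterion at the 95% level, where chance flags about 1 in 20 groups. Hmox1 accounted for 3 of them, with the highest mouse at 11.73 in total ChREBP-KO mouse 7 (next 10.83), 11.35 in WT littermate 2 of that line (next 10.44) and 11.41 in ChREBPβ-deficient mouse 2 (next 10.45). Mouse 2 of the WT littermates of the β line was also the highest of its group for Hmox1, at 11.29. The metallothionein gene Mt2 read 15.9, 14.2 and 14.5 in mouse 2 of the total line's WT littermates, the ChREBPβ-deficient mice and the β line's WT littermates, each the highest of its group, and 12.9 in total ChREBP-KO mouse 7, where knockout mouse 1 was higher at 13.97. Without mouse 2 of these 3 groups the Hmox1 difference in the total line was 0.41 (adjusted p = 0.023), with every mouse it was 0.29 (adjusted p = 0.32), and without total ChREBP-KO mouse 7 alone it was 0.12 (adjusted p = 0.68).

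The other mice apart from their group were total ChREBP-KO mouse 4 for Gclc (14.32, next 14.84), WT littermate 2 of the total line for the brighter Nfe2l2 probe (11.52, next 11.85), WT littermate 5 for the dimmer Txnrd1 probe (11.36, next 12.19) and WT littermate 4 of the β line for the dim Prdx1 probe (5.58, next 5.97). Adipocyte markers were high in that WT littermate 5 and pancreas markers in that WT littermate 2.

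The effect of the genotype differed between the 2 lines for the dimmer Nfe2l2 probe by -0.79 (total effect minus β effect) and for Srxn1 by -0.94, each tested as the difference of the effects in limma.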

How the results depend on the processing

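The 3 lower calls of the total line (Srxn1, Gsr and the dimmer Nfe2l2 probe) held in every setting run, the higher ones did not. The 7 called genes became 4 with the exact Mann-Whitney test and 3 to 7 with single arrays left out. For the difference of the effects, the 2 genes became 1 without a filter, with slide as a fixed block or without the 3 WT arrays with pancreas markers, and 1 to 2 with single arrays left out. They became 3, with Hmox1 added, without the 3 first-component arrays. Srxn1 was the gene lost where the count fell, except with slide as a fixed block, where it was Nfe2l2. Between the WT groups 3 genes became 1 with slide as a fixed block. Probes without overlap of the groups went from 0 to 1 under 75th-percentile scaling, of either the processed or the median signal, and 0 to 1 with single arrays left out. Among the 34 member values recomputed in this way, signs turned for the dimmest of the 3 bright Prdx1 probes without the 3 pancreas-marker arrays (0.0011) and, with single arrays left out, for the same probe (-0.0891 to 0.00675), the dim Prdx1 probe in the β line (-0.0168 to 0.0654) and Srxn1 in the β line (-0.0723 to 0.165).

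With the replicate block 7 genes were called in the total line, 2 for the difference and 0 in the β line. Same-numbered mice of knockout and WT groups correlated at -0.21 to 0.24 in the total line, with 2 of 7 pairs above 0.1. In the β line they correlated at -0.16 to 0.53, with 6 of 8 pairs above 0.1, so mice of 1 number may share something there. The labels name no pairs and the main model did not use the numbers. The block changed none of these 3 counts. The dim Prdx1 probe, well above background on 30 arrays, is limited by its signal.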
